A study of Mus musculus with 4 samples.

Results

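Some KAP1 binding sites lie inside a gene and close to a coding gene end, but not at the end itself. That end is mostly one of the holding gene, but it can belong to another gene. The near-end summits described here are positions of highest KAP1 enrichment that both replicates share, that lie inside a protein-coding gene, and whose nearest coding gene start or end is more than 1000 and at most 10000 bp away. A summit was shared when a replicate 1 summit on chromosomes 1 to 19 had a replicate 2 summit within 200 bp. By this rule 1507 of 7641 shared summits were near-end summits (19.7%, Wilson 95% interval 18.8 to 20.6%), or 36.7% of the 4106 that lay inside coding genes. The members were chosen by the measured summit positions of both lists, so their number and their distances are a description. The other shared summits were 1717 within 1000 bp of a gene end, 1821 deeper in genes and 2596 outside coding genes.

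The cells were regulatory T cells from the spleen of C57BL/6 mice, sorted and then grown in culture for 2 weeks. Chromatin immunoprecipitation and sequencing (ChIP-seq) with the KAP1 antibody 1Tb-A9 was done on 2 samples, and 2 input samples carry no antibody. No genotype, treatment or age is given, and nothing says how the cells were sorted or whether the replicates came from separate animals, so their differences may be technical. The replicate 1 list has 8862 summits and that of replicate 2 has 79515, their read depth is not recorded, and the inputs were not analysed here.

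KAP1, also called TRIM28, is a large scaffold protein without a sequence-specific DNA-binding domain of its own. KRAB zinc finger proteins recruit it, and it in turn brings in the histone methyltransferase SETDB1, HP1 proteins and histone deacetylases, which silence retroelements and some genes. KAP1 has also been mapped to promoters and bodies of transcribed genes. In regulatory T cells, the lineage factor Foxp3, interleukin-2 signalling, costimulatory receptors and a network of transcription factors maintain identity and suppressive function.

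Some near-end summits lay at a start site that the gene table's outer coordinates hide, because many genes have further starts inside their bounds. A RefSeq table of GRCm38.p6 lists 300-base windows from 250 bases before to 50 after a gene's annotated starts, and 46 of the 3308 windows that start in the same zone of genes held a near-end summit. These windows belong to 44 genes. The 8 below join T cell genes (Ccr4, Pim1, Ptpn22) with genes used in most cells that carry the ETS letters CCGGAAG (Psmc2, Rnf126, Smn1, Itpa, Ap2b1). The 8 were chosen for this, after their values were seen. They run 5′ to 3′ along the gene's strand, and capitals mark matches on either strand to CCGGAAG (ETS), TGANTCA (AP-1), TGTGGTT (RUNX), TGTTTAC (forkhead) or TGACGTCA (CREB). The Ccr4 window is chr9:114496495-114496794 (mm10, reverse strand) with the summit at base 88. The Pim1 window is chr17:29492835-29493134 (forward) with the summit at base 101. The Ptpn22 window is chr3:103860027-103860326 (forward) with the summit at base 277. The Psmc2 window is chr5:21786497-21786796 (forward) with the summit at base 239. The Rnf126 window is chr10:79766903-79767202 (reverse) with the summit at base 167. The Smn1 window is chr13:100124605-100124904 (forward) with the summit at base 147. The Itpa window is chr2:130667552-130667851 (forward) with the summit at base 114. The Ap2b1 window is chr11:83302447-83302746 (forward) with the summit at base 289.
Ccr4: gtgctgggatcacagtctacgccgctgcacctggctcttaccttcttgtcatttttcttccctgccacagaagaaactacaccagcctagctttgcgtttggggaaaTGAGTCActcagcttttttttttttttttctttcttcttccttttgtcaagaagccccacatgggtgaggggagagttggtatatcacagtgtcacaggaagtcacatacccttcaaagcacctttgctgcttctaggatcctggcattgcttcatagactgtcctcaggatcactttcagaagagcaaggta
Pim1: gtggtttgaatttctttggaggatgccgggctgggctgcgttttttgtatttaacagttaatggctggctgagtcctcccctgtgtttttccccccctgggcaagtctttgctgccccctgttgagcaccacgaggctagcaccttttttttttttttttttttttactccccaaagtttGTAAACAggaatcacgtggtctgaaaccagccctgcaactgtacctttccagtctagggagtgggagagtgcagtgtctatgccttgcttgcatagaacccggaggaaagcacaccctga
Ptpn22: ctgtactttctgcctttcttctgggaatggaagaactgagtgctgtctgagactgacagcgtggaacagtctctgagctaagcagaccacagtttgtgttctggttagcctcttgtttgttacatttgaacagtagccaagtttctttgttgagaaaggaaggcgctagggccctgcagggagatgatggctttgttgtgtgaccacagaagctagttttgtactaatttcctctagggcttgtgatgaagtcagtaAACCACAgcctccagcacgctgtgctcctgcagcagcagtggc
Psmc2: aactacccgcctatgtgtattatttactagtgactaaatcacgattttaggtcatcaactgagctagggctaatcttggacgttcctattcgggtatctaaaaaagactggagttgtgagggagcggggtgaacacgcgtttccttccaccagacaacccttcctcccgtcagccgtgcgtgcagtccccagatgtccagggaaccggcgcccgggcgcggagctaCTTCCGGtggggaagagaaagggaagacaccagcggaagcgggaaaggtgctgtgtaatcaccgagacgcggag
Rnf126: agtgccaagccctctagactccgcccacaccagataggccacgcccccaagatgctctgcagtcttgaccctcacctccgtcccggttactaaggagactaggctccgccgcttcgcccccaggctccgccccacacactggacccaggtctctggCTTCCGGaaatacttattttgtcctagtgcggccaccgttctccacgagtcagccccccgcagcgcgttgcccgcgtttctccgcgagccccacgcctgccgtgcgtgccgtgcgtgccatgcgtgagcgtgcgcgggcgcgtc
Smn1: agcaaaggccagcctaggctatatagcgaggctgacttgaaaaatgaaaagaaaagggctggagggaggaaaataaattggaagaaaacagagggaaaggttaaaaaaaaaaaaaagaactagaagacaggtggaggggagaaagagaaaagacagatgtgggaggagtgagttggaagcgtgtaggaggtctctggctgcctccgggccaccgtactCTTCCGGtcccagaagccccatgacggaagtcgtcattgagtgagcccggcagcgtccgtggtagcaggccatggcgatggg
Itpa: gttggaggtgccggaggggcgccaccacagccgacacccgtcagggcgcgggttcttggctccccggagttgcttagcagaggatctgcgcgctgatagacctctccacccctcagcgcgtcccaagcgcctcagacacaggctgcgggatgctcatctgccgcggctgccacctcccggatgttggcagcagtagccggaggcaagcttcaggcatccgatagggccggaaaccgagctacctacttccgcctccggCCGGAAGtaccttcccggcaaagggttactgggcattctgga
Ap2b1: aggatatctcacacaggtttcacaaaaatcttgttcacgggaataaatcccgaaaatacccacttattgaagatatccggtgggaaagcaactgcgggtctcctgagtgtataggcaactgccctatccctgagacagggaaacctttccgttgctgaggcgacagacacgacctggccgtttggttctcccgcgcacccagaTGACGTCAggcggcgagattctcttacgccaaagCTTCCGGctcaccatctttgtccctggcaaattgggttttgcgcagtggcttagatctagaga

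In the Ccr4 window the AP-1 match begins 20 bases after the summit, and in the Ptpn22 window the RUNX match begins 19 bases before it. The ETS match of Rnf126 begins 10 bases before its summit and that of Psmc2 12 bases before. In Smn1 and Itpa the ETS match begins farther off, 72 and 145 bases after the summit. Ap2b1 holds an ETS match 51 bases and a CREB match 85 bases before its summit. The forkhead match of Pim1 begins 80 bases after its summit. The Ccr4 window also holds AGGAAGT, another ETS form, and TTCAAAG, the reverse complement of CTTTGAA (TCF1), both left in lower case. A match is a run of letters, not a site shown to be used. Long runs of T in the Ccr4 and Pim1 windows and of A in the Smn1 window were not counted or compared with other windows.

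ETS letters were more frequent in the windows that held a near-end summit than in the other windows of the zone. CCGGAAG was found in 11 of the 46 windows (23.9%, Wilson 95% interval 13.9 to 37.9%). It was in 6.96% of the other 3262 windows of the same zone, in 9.0% of all 31365 listed windows on the chromosomes used, and in 31.9% of the 637 coding windows at gene ends that had a shared summit within 250 bp of their start. A second ETS form, AGGAAGT, which shares GGAAG with the first but cannot be the same match, was in 9 of the 46 (19.6%), against 7.57% of the others in the zone and 9.38% of all. In all, 12 motifs were searched on both strands. CTTTGAA (TCF1) was in 5 windows (10.9%, against 5.09% of all), CAGCTG (basic helix-loop-helix factors) in 4 (8.70%, against 16.3%), the letters AGATAA of the GATA-binding family in 3 (6.52%, against 11.2%) and CCCTC (part of the CTCF motif) in 32 (69.6%, against 66.3%). The CREB, RUNX, AP-1 and forkhead letters given above were in 2 windows each (4.35%), against 1.83%, 5.32%, 7.85% and 3.71% of all windows. TGTGGCT (RUNX, against 7.27%) and an NF-kB motif (against 0.418%) were in none. In the other windows of the zone, CTTTGAA was in 4.60%, CAGCTG in 17.7%, AGATAA in 10.4% and CCCTC in 72.4%. There the CREB, RUNX (TGTGGTT), AP-1 and forkhead letters were in 1.23%, 5.03%, 7.20% and 2.70%, TGTGGCT in 7.36% and the NF-kB motif in 0.644%. The windows with a near-end summit had a median of 16 CpG dinucleotides, against 8 in the others of the zone and 20 at occupied gene ends, while their median GC share was 55.8%, against 55.0% and 58.0%. The 46 windows include 2 overlapping pairs, in Pigo and Tcam1, and the Pigo pair holds 1 ETS match that was counted in both. With 1 window kept per pair, a count added after the data were seen, CCGGAAG was in 10 of 44 windows (22.7%) and AGGAAGT in 9 (20.5%). CpG count and the ETS letters were both higher in these windows than in the others of the zone, and their separate parts were not tested. Of the 46 windows, 42 were starts of a coding gene. The listed starts of the zone were 2289 coding and 1019 long noncoding RNA starts. The part of this difference in the contrasts with the zone was not tested either. All listed windows had a median of 7 CpG dinucleotides.

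Near-end summits lay mostly toward the start of the gene. The rule does not use which end is near. For the 1195 near-end summits that lie in a single gene whose strand the RefSeq start table gives, 823 were nearer to the gene's start than to its end (68.9%, Wilson 95% interval 66.2 to 71.4%), although only 50.1% of the bases of this zone are nearer to a start. Shared summits deeper in genes leaned less toward the start, with 773 of 1446 nearer to it (53.5%, 50.9 to 56.0%). Of these, the ones 10 to 20 kb from an end were nearer the start in 58.3% (53.9 to 62.5%). Those inside genes within 1000 bp of an end were mostly at starts, 539 of 610 (88.4%, 85.6 to 90.7%). Among near-end summits over 1000 bp from every listed start, 668 of 1026 were nearer the gene start (65.1%, 62.1 to 68.0%). In genes of 20000 bp or longer the share was 70.2% (579 of 825). Both of these subsets were added after the data were seen. The excess was smaller among replicate 2 summits of this zone without a replicate 1 partner, of which 4419 of 7939 were nearer the start (55.7%, 54.6 to 56.8%). Over the whole replicate 2 list the share was 57.4% (56.4 to 58.4%). Intervals cover counting error only, and sites are not replicates of a condition.

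Density showed the same asymmetry as a gradient. On the start side, shared summits fell from 16 per Mb of gene at 1 to 2 kb (exact Poisson 95% interval 13.9 to 18.2) to 10.3 at 2 to 3 kb (8.59 to 12.2), 8.30 at 3 to 5 kb (7.15 to 9.57) and 6.36 at 5 to 10 kb (5.64 to 7.15). On the end side the 4 values were 3.98, 4.26, 3.82 and 4.0 per Mb, with intervals that all overlap. The start side was thus above the end side in each of these bins with no overlap of intervals. The excess on the start side went on past the zone. At 10 to 20 kb the start side was at 5.12 per Mb (4.55 to 5.74) and the end side at 3.66 (3.19 to 4.19), again without overlap. Farther in, the sides drew together, with 3.73 and 3.36 at 20 to 50 kb, and 1.31 and 1.41 beyond 50 kb. Over both sides and all strands, near-end summits numbered 6.26 per Mb of the 241 Mb in their zone (5.95 to 6.59), against 2.59 per Mb of the 702 Mb deeper in genes (2.48 to 2.72), a ratio of 2.41. The distance is part of the rule, so this ratio is a description. With replicate 2 alone it was 1.35 and with replicate 1 alone 2.49. The replicate 2 list ran from 52 summits per Mb at 1 to 2 kb to 48.1 at 5 to 10 kb, 44.7 at 10 to 20 kb and 28.9 beyond 50 kb.

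**Figure D1:**
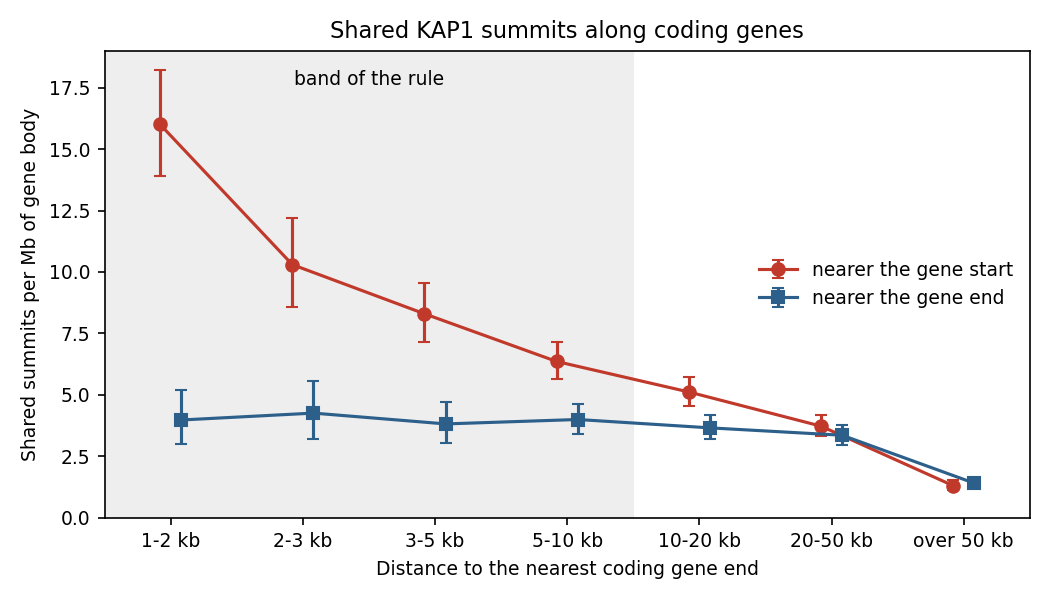
Shared summits per Mb of gene body (vertical axis) by distance to the nearest coding gene end (horizontal axis, bins in kb), for positions nearer the gene start (red circles) and nearer its end (blue squares). Bars are exact Poisson 95% intervals and grey marks the zone of the rule. The start side falls from 16 to 6.36 across that zone, while the end side stays between 3.82 and 4.26.

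Listed starts inside genes were near only a small share of the summits, and a larger share than that of the bases of the zone. A listed start lay within 250 bp of 59 of the 1472 near-end summits on the chromosomes other than 18 (4.01%, Wilson 95% interval 3.12 to 5.14%), against 0.655% of the bases of the zone. In 53 cases it was a start of the coding gene that holds the summit and in 6 a start of a long noncoding RNA gene. Within 1000 bp there were 179 (12.2%, 10.6 to 13.9%). Close to the start the summits leaned upstream, with 37 of the 59 before it and 22 at or after it, and a median position of -50 bp. Of the 179 within 1000 bp, 89 lay before the start and 90 at or after it. Counted from the starts, 59 of 2289 coding starts in the zone had a shared summit within 250 bp (2.58%), against 637 of 16377 coding starts near a gene end (3.89%). Long noncoding RNA starts in the zone had one in 5 of 1019 cases (0.491%, 0.210 to 1.14%). Near-end summits at listed starts had median scores of 9.50 in replicate 1 and 14.7 in replicate 2, against 8.34 and 13.1 for the others. With replicate 2 alone, 1.07% of summits of the zone lay within 250 bp of a listed start, and with replicate 1 alone 3.67%.

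**Figure D2:**
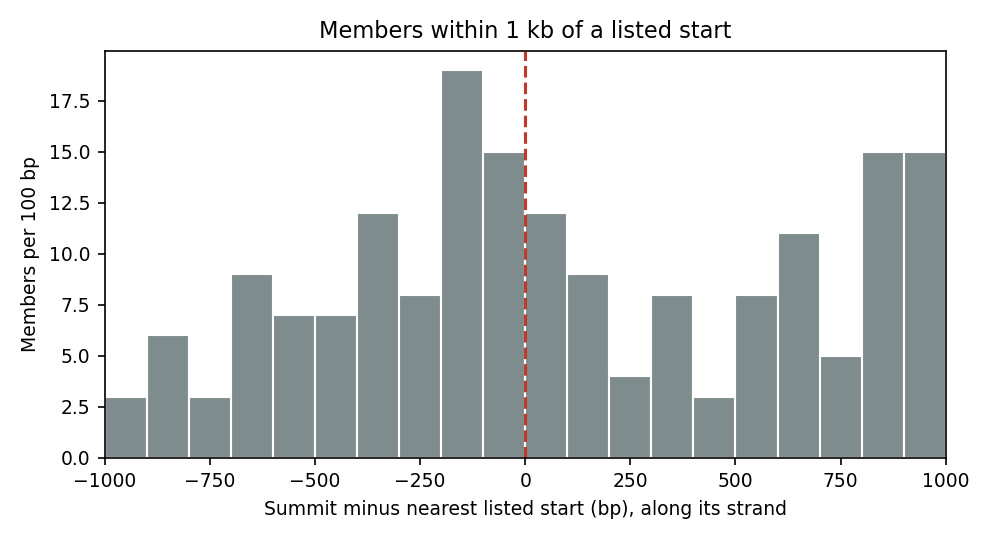
Number of near-end summits per 100 bp (vertical axis) by position against the nearest listed start (horizontal axis, bp along the start's strand, negative before it), for the 179 within 1000 bp. The tallest bar lies shortly before the start (dashed line), with 34 summits 1 to 200 bp before it and 20 in the same span after it. Over the full 1000 bp, 89 lay before the start and 90 at or after it.

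Genes with such a summit covered lymphocyte signalling and general cell functions. Ccr4, a chemokine receptor of regulatory and type 2 helper T cells, had a near-end summit 163 bp before a listed start, at position 114496707 of chromosome 9. It scored 38.3 in replicate 1 and 57.9 in replicate 2. Pairs of scores below follow the same order. Pim1, a kinase gene induced by cytokines, had one 150 bp before a listed start (41.8 and 53.6). Ptpn22, a phosphatase that restrains T cell receptor signalling, had one 26 bp from a listed start (13.2 and 12.2). Gata3, a T cell transcription factor, had one at 190 bp (17.3 and 22.8), and Ikzf1, which encodes Ikaros, one at 189 bp (10.3 and 24.0). Bcl2l1, the gene of the survival protein BCL-XL, had one at 140 bp (9.60 and 40.0). Among general genes, Ubtf, a factor of ribosomal RNA transcription, had one at 119 bp (17.1 and 44.5), Per1, a circadian clock gene, one at 159 bp (22.5 and 19.7) and Psmc2, a proteasome subunit gene, one at 12 bp (10.7 and 10.3). Smn1, needed for assembly of spliceosomal particles, had one at 104 bp (15.7 and 32.8), and Itpa, which clears inosine nucleotides, one at 137 bp (28.3 and 27.5). Rnf126, a ubiquitin ligase gene, and Ap2b1, a clathrin adaptor subunit gene, had weaker ones at 84 and 38 bp (5.10 and 4.80, then 3.21 and 5.64).

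The score is the authors' peak caller's value for each summit, on a −log10 scale, and it ranks summits only within its own list. Near-end summits ran from 1.32 to 147 in replicate 1 with a median of 8.34 (quartiles 5.10 and 13.3), and from 3.35 to 154 in replicate 2 with a median of 13.2 (8.33 and 23.8). In replicate 2 they held a median percentile of 83.4 of the whole list, against 81.0 for all shared summits, 82.2 at gene ends, 76.1 deeper in genes and 78.6 outside genes. In replicate 1 the median percentile was 58.3, as it was for all shared summits, with 53.3 deeper in genes. Across the 1507 sites both scores had a Spearman rank correlation of 0.729, given as a description, since the points share their libraries. This was the lowest of the location classes, with 0.804 at gene ends, 0.772 deeper in genes, 0.761 outside genes and 0.768 for all shared summits. The score changed little with distance inside the zone, with replicate 1 medians of 8.34, 8.37, 8.34 and 8.34 and replicate 2 medians of 13.9, 13.6, 12.8 and 12.8 in the 4 bins from the end inward. Paired summits were a median of 6 bp apart, 1404 pairs lay within 50 bp and 168 fell on the same base.

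**Figure D3:**
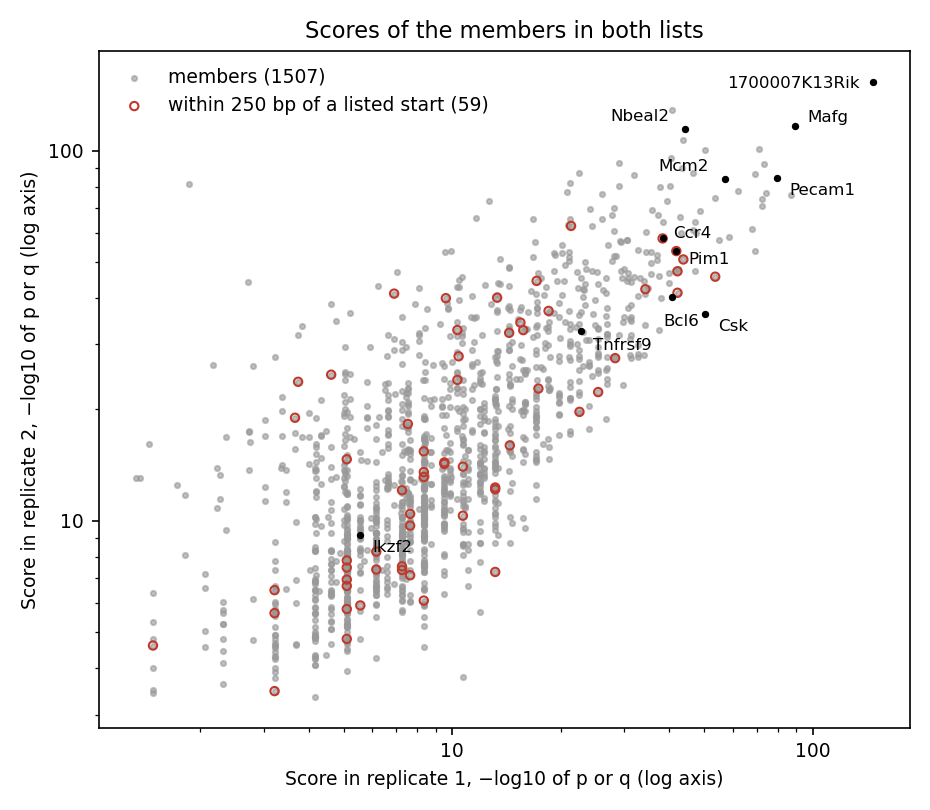
Score of each near-end summit in replicate 1 (horizontal, log axis) and replicate 2 (vertical, log axis), with 1507 points and 11 named genes in black. Red rings mark the 59 within 250 bp of a listed start, whose replicate 1 scores run from 1.48 to 53.6.

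The 25 near-end summits with the highest mean percentile of both scores lay in genes of several kinds. The strongest had the top score of replicate 1 and tied for the top score of replicate 2, at position 28464131 of chromosome 2 in 1700007K13Rik, 1820 bp from the nearest coding gene end (147 and 154). Mafg, a small Maf transcription factor gene, followed with 89.0 and 117 at 3040 bp from its end. Pecam1, the gene of the adhesion molecule CD31, had 79.6 and 84.3, and Kdm3b, a histone H3 lysine 9 demethylase gene, had 86.7 and 75.9. Genes of T cell signalling and adhesion were among them. Pag1 encodes the membrane adaptor that holds the kinase Csk (48.6 and 68.5), Map4k1 a kinase that dampens T cell receptor signals (43.5 and 107), Rap1b a GTPase of integrin adhesion (68.9 and 53.5), Ezr the membrane linker ezrin (53.3 and 74.6) and Cd53 a leukocyte tetraspanin (47.0 and 64.2). The cell cycle genes Ccnd3 (cyclin D3, 62.0 and 77.9) and Mcm2 (a replicative helicase subunit, 56.9 and 83.8) ranked high as well. Actb, the beta-actin gene, had one 1027 bp from the nearest coding gene end (67.6 and 61.3).

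Others of the 25 lay in Rnf212b (73.4 and 92.0), Eps15l1, an endocytosis gene (74.2 and 76.7), Rnf115, a ubiquitin ligase gene (69.3 and 86.7), and Lbh (72.4 and 73.9). Golga2, the gene of a Golgi matrix protein, had 72.4 and 70.9, and Trp53inp2, an autophagy gene, 58.6 and 58.3. Wdr70 had 50.2 and 100.1, Slc12a7, a potassium chloride cotransporter gene, 54.8 and 57.2, and Phip 46.4 and 86.8. Nbeal2, needed for platelet granules, had 44.1 and 114, Arhgef18 53.6 and 45.7, and Nvl, a ribosome assembly gene, 47.4 and 60.1. Every score of these 25 summits was at or above percentile 98.2 of its list, which is what the ranking chose.

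Most genes with a near-end summit had a single one. Of 18328 coding genes with bases in the zone, 1344 held at least 1 (7.33%), and of these 1180 held 1, 144 held 2, 17 held 3 and 3 held 4. The 3 with the most were Cytip, Tnfrsf9 and Zcchc14. Cytip encodes a cytohesin-binding protein of lymphocyte adhesion. It had 2 summits 6367 and 7774 bp from its start (29.9 and 47.9, then 19.2 and 36.4) and 2 at 6197 and 1002 bp from its end (21.2 and 81.7, then 6.16 and 10.5). Pim1, only a few kb long, had 3, of which the middle one was the strongest. Dpep2, a dipeptidase gene, also had 3 (31.2 and 38.2 for the strongest), and the 4 of Zcchc14 were weak, from 1.48 to 8.17 in replicate 1.

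**Figure D4:**
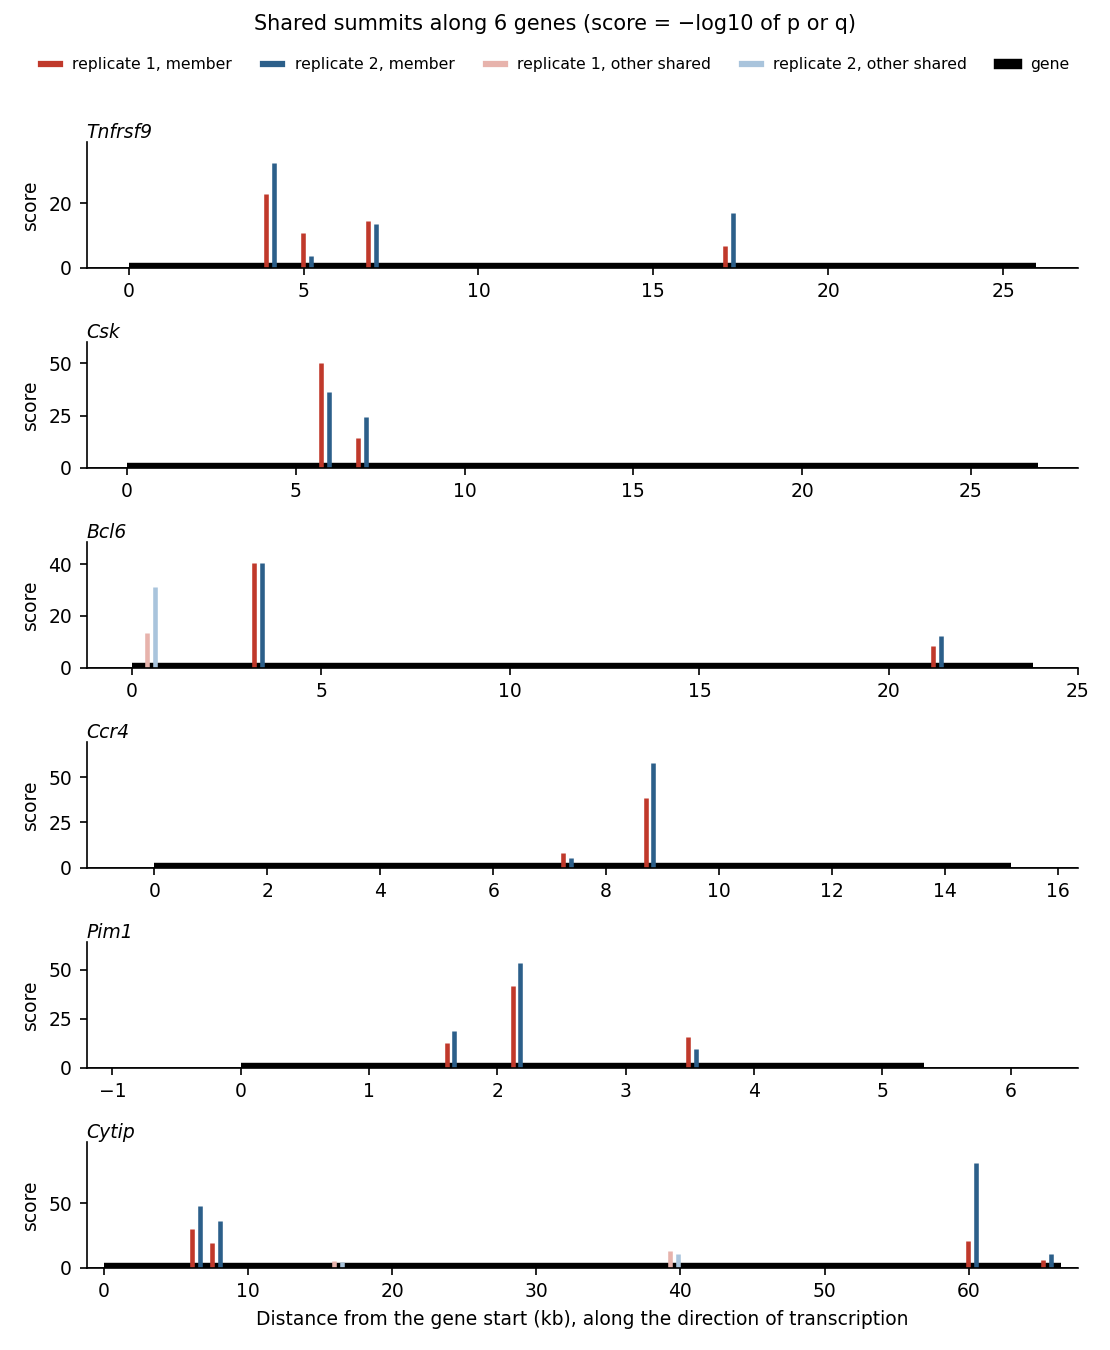
Shared summits along 6 genes, drawn as lines at their distance from the gene start (horizontal axis, kb, in the direction of transcription) with the height of their score (vertical axis, −log10 of p or q) in replicate 1 (red) and replicate 2 (blue). Dark lines are near-end summits, pale lines other shared summits, and black bars the genes. Csk and Ccr4 each carry 1 strong and 1 weaker summit, while Cytip carries 4 near-end summits, placed toward its ends by the rule, and 2 deeper ones.

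Genes with a near-end summit more often had a shared summit at an end too. One lay within 1000 bp of either end of 213 of the 1344 genes (15.8%, Wilson 95% interval 14.0 to 17.9%), against 1581 of the 16984 genes of the zone without a near-end summit (9.31%, 8.88 to 9.75%). Shared summits deeper in the gene occurred in 220 of the 1344 (16.4%, 14.5 to 18.4%), a share that was not compared with other genes. Genes with a near-end summit were longer, with a median of 29.2 kb against 20.8 kb, and the part of length in these shares was not tested. Another shared summit lay within 5000 bp of 22.1% of near-end summits (20.1 to 24.3%), against 18.1% of all shared summits (Wilson 95% interval 17.3 to 19%).

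T cell genes carried near-end summits at a higher rate than coding genes at large. Over 7 lists of T cell genes, 46 of 193 genes with bases in the zone held one (23.8%, Wilson 95% interval 18.4 to 30.3%), against 7.33% of all 18328. Longer genes offer more bases, so the same was counted for genes with at least 18000 bp of the zone: 35 of 128 T cell genes (27.3%, 20.4 to 35.6%), against 895 of 9512 (9.41%). With replicate 2 alone the T cell genes were also above all coding genes, but by a smaller ratio. They stood at 60.6% (53.6 to 67.2%) against 43.4% over all genes of the zone, and at 71.1% (62.7 to 78.2%) against 57.7% with at least 18000 bp. The excess was not particular to near-end summits: a shared summit within 1000 bp of a gene end occurred in 38 of the 128 T cell genes (29.7%, 22.5 to 38.1%), against 931 of the 9512 (9.79%). The 58 near-end summits in these genes had a median mean percentile of 67.9, against 68.2 for all members. They were nearer the start in 29 of 47 cases with known strand. The lists were drawn up with earlier results of these data known, and they share genes.

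The regulatory T cell signature had 12 of 38 genes with a near-end summit (31.6%, Wilson 95% interval 19.1 to 47.5%), and 22 of 38 (57.9%) with replicate 2 alone. Among its surface receptors, Tnfrsf9, the costimulatory receptor 4-1BB, had 4, at 4035, 5108 and 6952 bp from its start and 8783 bp from its end. In that order they scored 22.7, 10.7, 14.4 and 6.64 in replicate 1 but 32.5, 3.78, 13.7 and 17.1 in replicate 2. The first was the strongest in both lists, while the order of the others differed. Ccr4 had a second, weak summit (8.34 and 5.21). Izumo1r, the folate receptor 4 of regulatory T cells, had 2, at 2784 bp from its start (11.9 and 23.8) and 8993 bp from its end (7.43 and 11.5). Lag3, a receptor that binds MHC class II and restrains T cells, had one (9.50 and 11.5), as did Itgae, the integrin chain CD103 (8.34 and 9.88), and Nt5e, the ectoenzyme CD73 that makes adenosine (9.50 and 8.17). Of the secreted and intracellular members, Tgfb1, the suppressive cytokine gene, had one 2588 bp from its end (7.34 and 15.4), and Swap70, a regulator of actin, had one 8204 bp from its start (9.86 and 14.6).

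T cell transcription factors had a near-end summit in 12 of 40 genes (30.0%, Wilson 95% interval 18.1 to 45.4%), and 25 of 40 with replicate 2 alone. Bcl6, the repressor of follicular helper T cells, had the strongest, 3331 bp from its start (40.5 and 40.3), a second one 2541 bp from its end (8.34 and 12.3) and a further shared summit within 1000 bp of an end. Among them were 4 genes of the Ikaros family. Ikzf4, which encodes Eos, had 30.5 and 57.2, Ikzf3, which encodes Aiolos, 13.2 and 12.3, Ikzf1 10.3 and 24.0, and Ikzf2, which encodes Helios, only 5.56 and 9.15. Klf6 had one 3102 bp from its start (26.7 and 25.5), Elf1, an ETS factor gene, one at 1305 bp (16.7 and 31.4) and Tcf3, the gene of E2A, one at 8731 bp (11.9 and 14.4). Irf2, an interferon regulatory factor gene, had 3, of which the strongest lay 1807 bp from its end (10.7 and 22.1). Lef1 (5.10 and 6.47) and Foxo3 (5.10 and 6.64) had weak ones.

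T cell receptor signalling had 10 of 32 genes (31.2%, Wilson 95% interval 18.0 to 48.6%), and 23 of 32 with replicate 2 alone. Csk, the kinase that holds Src family kinases in check, had the strongest summits, 5854 and 6964 bp from its start (50.2 and 36.1, then 14.4 and 24.1). The adaptor gene Nck2 had 2 near its end, at 8081 and 9207 bp (22.5 and 36.0, then 10.7 and 13.4). Plcg1, the phospholipase that produces second messengers, had 2 near its start, at 1256 and 2113 bp (8.34 and 16.9, then 4.61 and 5.36). Dgka, which degrades diacylglycerol, had 8.40 and 13.3, the adhesion receptor gene Cd2 had 14.4 and 8.73, and the kinase genes Fyn (8.34 and 5.92) and Lck (4.17 and 4.35) had low scores. The phosphatase-like gene Ubash3a had 7.25 and 7.57.

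Of 24 costimulatory and inhibitory receptor genes 6 had a near-end summit (25%, 12 to 44.9%), among them Tnfrsf1b, the TNF receptor TNFR2, at 6065 bp from its start (31.0 and 31.1), Cd101 (4.32 and 17.1), Cd200 (5.10 and 5.20) and Btla (3.21 and 5.78). Of 35 cytokine receptor, JAK, STAT and SOCS genes 6 had one (17.1%, 8.10 to 32.7%). Ifngr1, a chain of the interferon gamma receptor, led with 31.0 and 28.0, followed by Il7r, the interleukin-7 receptor alpha chain, 1745 bp from its start (18.1 and 29.3). Il6ra (11.0 and 11.4), Il10rb (4.19 and 10.1), Ifnar1 (5.10 and 6.23) and Stat4 (5.10 and 5.60) were lower. Conventional and naive T cell genes had 3 of 23 (13%, 4.54 to 32.1%), namely Il7r, Lef1 and Il4, the interleukin-4 gene (5.56 and 4.79). NF-kB, NFAT and AP-1 factors had 5 of 30 (16.7%, 7.34 to 33.6%), all with low scores: Traf1 (4.61 and 7.89), Nfkb2 (5.10 and 5.79), Nfkb1 (4.17 and 6.97), Mafk (4.17 and 5.42) and Batf (3.21 and 4.23).

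**Figure D5:**
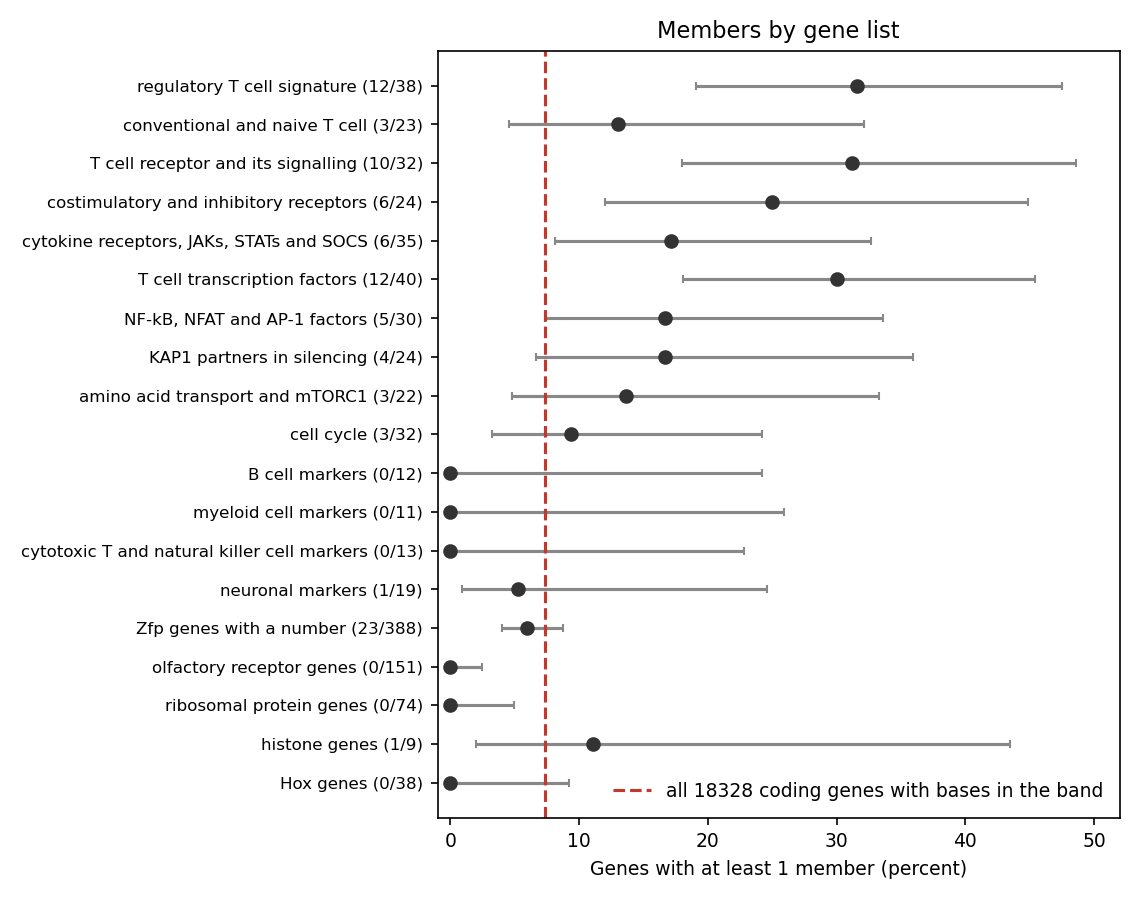
Percent of genes in each of 19 lists that held at least 1 near-end summit (horizontal axis), with Wilson 95% intervals and, in brackets, the genes with a summit over the genes with bases in the zone. The dashed line is the 7.33% of all 18328 coding genes. The regulatory T cell, T cell receptor and T cell transcription factor lists lie near 30%, and 6 lists stand at 0.

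Lists outside the T cell groups ranged from above the background of 7.33% to none, with wide intervals. KAP1 partners in silencing had 4 of 24 genes (16.7%, Wilson 95% interval 6.68 to 35.9%): Trim24, a relative of KAP1 (18.5 and 15.9), Ehmt2, the methyltransferase G9a (11.7 and 26.8), Hdac1, a histone deacetylase (13.4 and 13.9), and Setdb1 (9.86 and 13.9). Amino acid transport and mTORC1 genes had 3 of 22 (13.6%, 4.75 to 33.3%). These were the glutamine transporter gene Slc38a1 (31.3 and 35.6), Slc3a2, the shared heavy chain of amino acid exchangers, with 2 summits (18.7 and 27.6, then 4.61 and 13.9), and Mtor (11.9 and 15.6). The Mtor summit lay deep in its own gene, 60780 bp from the start and 48323 bp from the end. It met the rule through Angptl7, 8900 bp away. With the ends of the holding gene only, this list held 2 genes, the regulatory T cell list 11 and the cell cycle list 4. Cell cycle genes had 3 of 32 (9.38%, 3.24 to 24.2%), with E2f2 (14.4 and 28.9) beside Ccnd3 and Mcm2. Zfp genes with a number, many of which encode KRAB zinc finger proteins, had 23 of 388 (5.93%, 3.98 to 8.74%), led by Zfp710 (42.8 and 66.0), Zfp280b (34.8 and 42.7), Zfp574 (21.0 and 53.2) and Zfp746 (19.8 and 19.4). Among 9 histone genes with bases in the zone only the variant gene H2az1 had one (29.4 and 56.6).

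Marker genes of other cell types held almost none. B cell markers had 0 of 12, myeloid markers 0 of 11 and cytotoxic T and natural killer cell markers 0 of 13, and neuronal markers had 1 of 19, Dlg4 (8.34 and 10.3). Together that is 1 of 55 genes (1.82%, Wilson 95% interval 0.322 to 9.61%), a range that includes 7.33%. With replicate 2 alone it was 21 of 55 (38.2%), against 43.4% of all genes. The B cell, myeloid and cytotoxic lists had a median of 13703, 12745 and 5945 bp of the zone per gene, and the neuronal list 18000 bp. Unlike for the T cell genes, no count was made for genes with at least 18000 bp of the zone. Olfactory receptor genes (0 of 151), ribosomal protein genes (0 of 74) and Hox genes (0 of 38) also had none, with a median of 2956, 1877 and 1774 bp of the zone per gene, against 18000 bp for coding genes without a near-end summit. The lists measure summits and not expression, so the labelled cell type can be set only against these loci.

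Several central genes had no near-end summit, which only 7.33% of the coding genes with bases in the zone held. Il2ra, the interleukin-2 receptor alpha chain, has 18000 bp of the zone and held neither a near-end summit nor a deeper shared one, although it has a shared summit at an end. Ctla4, an inhibitory receptor gene, was the same, with 4806 bp of the zone. Neither Il2ra nor Ctla4 had a replicate 2 summit in the zone. Trim28, the gene of KAP1, had no replicate 2 summit either in its 4442 bp of the zone, and Slc1a5, a glutamine transporter gene, had 3 of replicate 2 alone in 14939 bp. Foxp3 lies on chromosome X, which the rule leaves out.

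A few near-end summits lay by small RNA genes. Of the 1507, 5 had a miRNA gene end within 1000 bp, 1 a snoRNA gene end, 2 a snRNA gene end and 2 a tRNA gene end. No such counts by class are given here for other shared summits or for the bases of the zone, so these are a description. Among the miRNA genes, 4 have a mature sequence in the RefSeq miRNA table. It is shown to identify the miRNAs, with the seed, bases 2 to 8, in capitals. Mirlet7g, of the let-7 family that targets growth genes, lay 828 bp from the summit at position 106178012 of chromosome 9 in Wdr82 (25.1 and 47.0). Mir7060 lay 686 bp from one in Fbrs (23.1 and 40.3), Mir1931 848 bp from one in Cdk17 (22.5 and 22.0) and Mir8104 594 bp from one in Ppm1h (7.25 and 9.67). The 4 have different seeds, and all lie on the forward strand of mm10, at chr9:106178846-106178867, chr7:127489251-127489272, chr10:93162879-93162900 and chr10:122679336-122679357.
mmu-let-7g-5p: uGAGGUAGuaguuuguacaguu
mmu-miR-7060-5p: gUGAGUGCuggguagaauggga
mmu-miR-1931: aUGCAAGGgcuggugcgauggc
mmu-miR-8104: cAGGAUGAgguggagugcagcg

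Long noncoding RNA genes covered 59 near-end summits (3.92%, Wilson 95% interval 3.05 to 5.02%), against 113 of 1821 shared summits deeper in genes (6.21%, 5.19 to 7.41%). An end of a noncoding gene of any class lay within 1000 bp of 60 (3.98%, 3.11 to 5.09%), against 3.62% deeper in genes (2.86 to 4.59%). Of the 1507, 1485 lay in 1 coding gene, 20 in 2 and 2 in 3. By chromosome, the share of shared summits that were near-end ranged from 14.0% on chromosome 13 (42 of 299) to 26.4% on chromosome 7 (147 of 557).

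Recovery between the lists was like that of other locations from the side of replicate 1. Of the 1756 replicate 1 summits of the zone, 1507 had a replicate 2 partner (85.8%, Wilson 95% interval 84.1 to 87.4%), against 88.3% at gene ends, 88.4% deeper in genes and 86.0% outside genes. From the side of replicate 2, 1507 of 11611 summits of the zone had a partner (13%, 12.4 to 13.6%), which lies between 34.8% at gene ends and 7.26% deeper in genes. In replicate 1 the unshared summits of the zone had a median score of 5.10, against 8.34 for the shared ones, and in replicate 2 these medians were 8.44 and 13.3. Sharing is part of the rule, so these shares describe it.

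The members nearest the limits of the rule had these distances and scores. Just inside the lower limit lay summits in Cytip (1002 bp, 6.16 and 10.5), Pttg1 (1003 bp, 5.79 and 18.9) and Inhbe (1004 bp, 17.2 and 24.0), and just outside it Mfng (998 bp, 17.0 and 11.9), Itpripl1 (997 bp, 13.2 and 11.6) and Mcm7 (996 bp, 4.17 and 6.09). At the upper limit, Coro2a (9989 bp, 15.5 and 19.8), Srpk1 (9988 bp, 13.2 and 20.4) and Ninj2 (9956 bp, 10.7 and 12.0) were inside, and Bach2 (10015 bp, 9.50 and 8.34), Naa15 (10017 bp, 5.56 and 9.15) and Napepld (10026 bp, 37.0 and 46.4) outside.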

How the data were processed

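The cells were sorted and cultured before use, per the series' design text. Per the labels' protocols, nuclear lysates were sonicated and immunoprecipitated, and libraries of 150 to 400 bp fragments came from a DNA SMART ChIP-Seq kit. Per the submitters' processing notes, Bowtie2 2.2.9, Picard 2.1.1, MACS2 2.2.1 and mm10 were used; settings, control and threshold were not given in the sources used here. The authors deposited 1 summit list per KAP1 sample, with a −log10 score per summit; whether it stands for p or q is not recorded. Depth is unknown. Positions are 1-based.

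Genes (21900 coding) came from an NCBI RefSeq table of GRCm38.p6 that gives outer coordinates only. Strand and inner starts came from a RefSeq table of 300-base start windows, which holds 16457 of the 20665 coding genes on chromosomes 1 to 19; other genes were left out of strand counts. Densities divide summits by gene bases at the same distance. The planned sequence analysis around every summit was limited to these windows, without a genome.

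Named genes are those of the 25 highest mean percentiles, up to 4 per gene list, up to 5 genes with the most members, listed genes with at least 3, those at the limits and 6 fixed genes; the genes at listed starts, the small RNA genes and the further list members were chosen after their values were seen. Members and lists were chosen with earlier results of these data known. With 2 samples of 1 group no test was made; intervals are Wilson or exact Poisson at 95%. Python 3.11.15, pandas 2.3.3 and scipy 1.17.1 were used. The rule and base counts were tested on simulated data. The values of some genes that the naming rule selects are not reported here.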

Additional observations from a re-analysis of the deposited data

How the results depend on the processing

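The counts and shares below are the number of near-end summits (1507 as reported), their share of shared summits (19.7%), the density ratio to deeper gene bases (2.41), the share nearer the start (68.9%), the median replicate 1 percentile (58.3), the share of genes with a summit (7.33%), the share within 1000 bp of a noncoding gene end (3.98%), the share at a listed start (4.01%) and the replicate 1 recovery (85.8%). Leaving out a replicate gave 1756 to 11611 summits, shares of 14.7 to 20%, ratios of 1.35 to 2.49, start shares of 57.4 to 69.7%, gene shares of 8.09 to 43.4%, noncoding shares of 2.61 to 4.04%, listed start shares of 1.07 to 3.67%, and a percentile of 51.8 with replicate 1 alone; the replicate 2 list alone gave the lowest ratio, start share and listed start share. At a shared distance of 50 bp the gene share was 6.91% and recovery 80.0%. With scores at or above the medians there were 873 summits, a share of 20.7%, a ratio of 2.72, a percentile of 76.1, a gene share of 4.45% and a recovery of 88.8%. With replicate 2 reduced to its 8862 highest scores these were 667, 21.2%, 2.83, 81.4 and 3.52%. With ends of genes of any type, the share was 23.0%, the start share 65.7%, the gene share 8.21% and the noncoding share 0%, as the construction sets. An upper limit of 5000 bp gave 940 summits, 12.3%, a start share of 73.5%, a gene share of 4.86% and a listed start share of 5.42%, and one of 20000 bp gave 27.9%, 65.7% and 9.69% for share, start share and gene share. A lower limit of more than 500 bp gave 23.7%, 71.8%, 8.35% and a listed start share of 5.59%, and one of more than 2500 bp gave 13.4%, 64.0%, 5.80% and 2.89%. The start share over 1000 bp from listed starts was 65.1%. Where no construction shows it, the cause was not tested. Between 9 and 11 of 14 named lists were above the background of their setting in every alternative. By count, 9 of the 14 lists moved over 1.5 times with replicate 2 reduced, where the share over all genes also fell, from 7.33 to 3.52%. The regulatory T cell list then held 6 genes and the T cell receptor list 3, against 12 and 10 as reported. No paired analysis was possible because no result compares the KAP1 samples with the inputs, which were not analysed here. Unknown depth limits what the absence of a shared summit can show.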
